A study of Mus musculus with 12 samples.

Results

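Transcripts of 10 basement membrane genes were examined in the left ventricle of banded and sham-operated mice. The genes encode 6 laminin chains (Lama2, Lama4, Lama5, Lamb1, Lamb2 and Lamc1) and 4 linkers (Nid1, Nid2, Hspg2 and Agrn). They were picked by name, through the NCBI Gene identifiers of the deposited table, and all 10 were found among its 18079 genes. Heart RNA of 12 mice was sequenced (C57BL/6 by the labels, C57BL/6J in the study's methods), 1 library per mouse and 3 mice per group. The DMSO+Sham and Hispidulin+Sham mice had a sham operation, and the DMSO+AB and Hispidulin+AB mice had aortic banding (AB), which narrows the aorta and overloads the left ventricle with pressure. Hispidulin, a plant flavone, was injected into the peritoneum at 20 mg/kg/day from 1 day ahead of the operation, and the other groups received its solvent, DMSO. By the labels the mice were 8 weeks old at surgery and 12 weeks old when left ventricular muscle was taken 4 weeks later. Whole muscle was used, so fewer cells of a type and less RNA per cell cannot be told apart in any value that follows.

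Basement membranes are thin sheets of matrix that surround each cardiomyocyte and underlie the endothelium of the capillaries and larger vessels. Their laminins are trimers of an alpha, a beta and a gamma chain, secreted as a cross-shaped molecule that binds integrins and dystroglycan at the cell surface. Nidogens and the heparan sulfate proteoglycans perlecan (Hspg2) and agrin (Agrn) tie the laminin sheet to the type IV collagen network. Laminin alpha 2 is the alpha chain of the muscle fibre sheath, and alpha 4 and alpha 5 are the chains of vessel walls.

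Levels are given as FPKM, in which the fragments of a gene are divided by transcript length and by library size, as the authors deposited them. Levels can therefore be set side by side between genes. The sequencing depth is unknown and no counting error can be given. Differences were tested with limma, with all 12 mice in the same model of log2(FPKM + 1), over 11664 genes that reached an FPKM of 1 in 3 mice or more. All 10 members were at or above that FPKM in every mouse. A gene was called changed at an adjusted p (Benjamini-Hochberg over all genes tested) under 0.05, and all fold changes are on the log2(FPKM + 1) scale. Heart muscle transcripts were abundant in every library, with a summed FPKM of 7 cardiomyocyte markers from 36118 to 53244.

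Some libraries stood apart from the rest. The third DMSO+Sham mouse had the lowest cardiomyocyte sum (36118) and the highest macrophage sum (280) of all mice. Its Actc1, the cardiac alpha actin, was at 2740.68, where the other mice had 7908.75 or more. Myl7, the light chain of atrial myosin, was at 333.05 in the third Hispidulin+Sham mouse, 67.54 in the second DMSO+AB mouse and 42.26 in the third Hispidulin+AB mouse. Every other mouse had 15.03 or less. The part of these features in the results was not tested, and values that a single mouse moved strongly are also given without it.

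Of the 10 members, 2 changed when DMSO+AB was compared with DMSO+Sham, in opposite directions. These were Nid1, the nidogen that joins the laminin gamma 1 arm to collagen IV, which rose, and Lama5, an alpha chain of vessel and epithelial basement membranes, which fell. Nid1 (NCBI Gene 18073) lies at chr13:13437602-13512275 and Lama5 (NCBI Gene 16776) at chr2:180176373-180225904 in the GRCm38.p6 annotation of RefSeq. The sequences upstream of both genes are shown because they were the members that passed the test. They were taken from RefSeq (GRCm38.p6), start up to 250 bases ahead of the annotated transcript start, run 5′ to 3′ on the strand of the gene, and stop where the gene record begins. Capitals mark the GC box, GGGCGG or its reverse complement CCGCCC.
Nid1 (plus strand, chr13:13437352-13437601): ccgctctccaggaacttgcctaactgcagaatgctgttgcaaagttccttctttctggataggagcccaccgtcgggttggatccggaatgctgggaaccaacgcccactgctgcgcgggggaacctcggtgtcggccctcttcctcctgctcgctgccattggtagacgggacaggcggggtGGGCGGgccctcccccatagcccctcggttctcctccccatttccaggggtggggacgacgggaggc
Lama5 (minus strand, chr2:180225905-180226109): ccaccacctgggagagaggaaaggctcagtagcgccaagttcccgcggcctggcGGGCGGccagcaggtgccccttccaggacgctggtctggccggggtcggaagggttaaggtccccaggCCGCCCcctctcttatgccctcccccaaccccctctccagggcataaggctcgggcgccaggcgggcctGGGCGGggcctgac
The Nid1 sequence held 1 GC box, and the Lama5 sequence of 205 bases held 3. In the full window of 250 bases, GC content was 64.4% for Nid1 and 72.4% for Lama5, against a median of 52.4% over 32851 RefSeq promoters. A GC box was present in 32.7% of those promoters. The letters CCAAT, searched on both strands, occurred 1 time in the Nid1 window and were present in 33.8% of promoters, and the Lama5 window had none. TATAAA (12.4% of promoters), TGANTCA (6.75%) and CACGTG (6.02%) were in neither window. A promoter entry was found for 7 of the 10 members, and Lama4, Lamc1 and Nid2 had none.

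In sham-operated mice without the drug, the levels of the members spread from the most abundant, Lamb2, at an FPKM of 69.7 ± 6.59 (SD, n = 3), to Nid2 at 3.84 ± 2.14. Lamb2 encodes laminin beta 2, and no Lamb2 value overlapped those of Hspg2, next in order at 35.6 ± 3.61. From Hspg2 down through Lamc1, Nid1, Lama5, Lamb1, Lama4 and Agrn to Lama2 at 11.6 ± 2.36, each gene overlapped its neighbour in the order. Nid2 lay below Lama2 without overlap. Lamb2 was at the top and Nid2 at the bottom of the order in all 4 groups, and the place of Lama5 differed between them. It was the fifth in DMSO+Sham, the sixth in Hispidulin+Sham and the eighth in both banded groups.

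**Figure D1:**
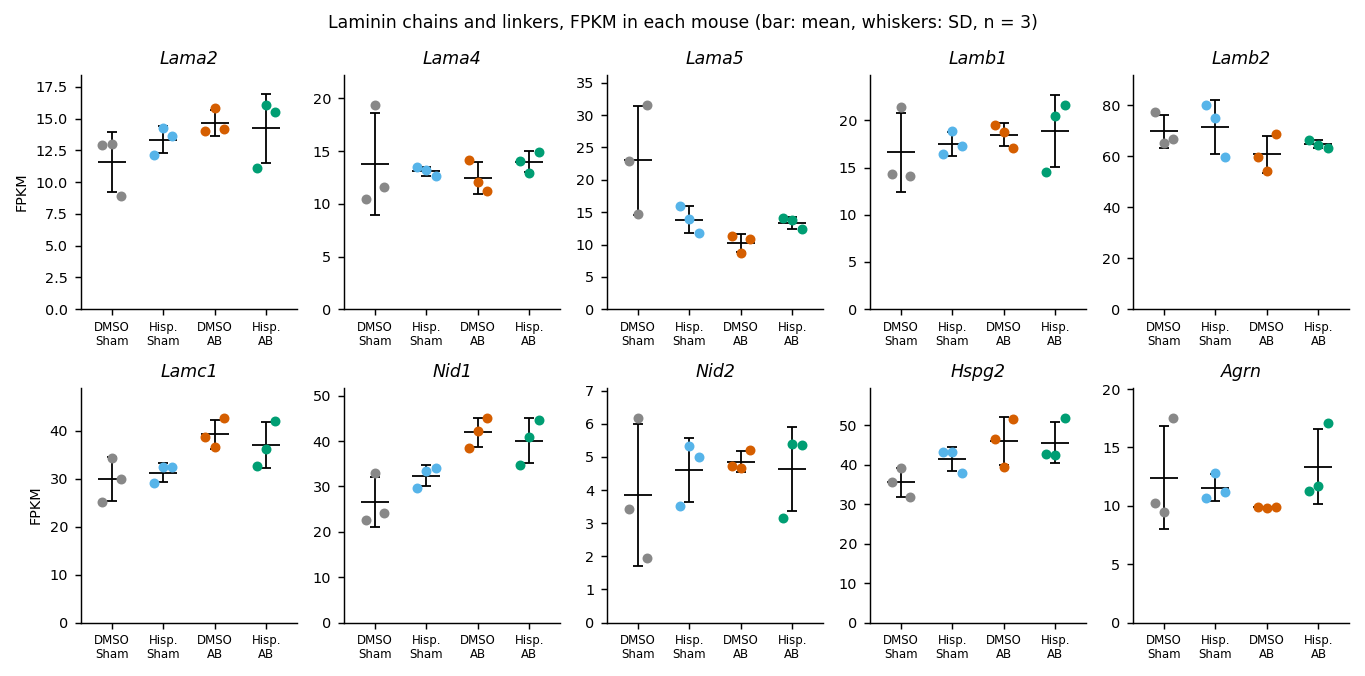
FPKM of the 10 members in each mouse, 1 panel per gene with its own axis from 0. Points are mice, the horizontal bar is the mean and whiskers are the SD of 3 mice, and Hisp. stands for Hispidulin. The Nid1 values of the 6 banded mice lie above those of the 6 sham mice, and the Lama5 values of DMSO+AB lie below those of every other group.

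The largest fall among the 10 members was that of an alpha chain. The FPKM of Lama5 was 22.88, 14.71 and 31.53 in the DMSO+Sham mice and 11.33, 8.7 and 10.78 in the DMSO+AB mice. The groups did not overlap, and the spread was widest in DMSO+Sham, where the third mouse was highest. The log2 fold change was -1.04 (standard error 0.22, 95% interval -1.51 to -0.57), which is 0.487 of the sham level, with an adjusted p of 0.0220 from limma. The third DMSO+Sham mouse, with its low Actc1, carried the highest Lama5 of all mice, and without it the log2 fold change was -0.79 and still passed. Lama2, the alpha chain of the muscle fibre, was at 12.9, 13.04 and 8.89 in DMSO+Sham and at 14.03, 15.85 and 14.17 in DMSO+AB. These groups did not overlap either, but its log2 fold change of 0.33 did not pass (adjusted p = 0.274 from limma) and was 0.16 without the third DMSO+Sham mouse. Lama4, found in the laminins of capillaries, had a log2 fold change of -0.09 with a 95% interval from -0.48 to 0.30, and ran from -0.25 without the first DMSO+Sham mouse to 0.17 without the second.

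Neither beta chain passed the test. Lamb2 was at 77.22, 65.07 and 66.7 in DMSO+Sham and at 59.72, 54.16 and 68.5 in DMSO+AB, with overlap and a log2 fold change of -0.20 (adjusted p = 0.410 from limma), and -0.12 without the second DMSO+AB mouse or the first DMSO+Sham mouse. Lamb1, the other beta chain, had a log2 fold change of 0.17 (adjusted p = 0.621 from limma). It ran from 0.068 without the third DMSO+Sham mouse to 0.35 without the second. The gamma 1 chain Lamc1, shared by nearly all laminins of the heart, was at 25.22, 34.38 and 29.95 in DMSO+Sham and at 38.6, 36.57 and 42.54 in DMSO+AB. Every banded mouse was above every sham mouse in this comparison. Its log2 fold change was 0.39 (95% interval 0.11 to 0.67), and it did not pass (adjusted p = 0.105 from limma). Without the second DMSO+Sham mouse, the highest of its group, the value was 0.50 and passed (adjusted p = 0.0374). It also passed with library weights, which give less weight to libraries that depart from the fit (0.50, adjusted p = 0.0365), and with GC content and length of the transcript removed (0.44, adjusted p = 0.0457).

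Among the linkers, Nid1 was at 22.69, 32.94 and 24.07 in DMSO+Sham and at 38.53, 42.15 and 44.97 in DMSO+AB. No values overlapped, and the second sham mouse was the highest of its group. Its log2 fold change was 0.65 (standard error 0.14, 95% interval 0.34 to 0.96), a 1.57-fold rise with an adjusted p of 0.0253 from limma. Nid2, the second nidogen, was far lower, at 3.42, 6.16 and 1.94 in DMSO+Sham and at 4.71, 4.65 and 5.22 in DMSO+AB. The sham mice spanned the whole range of the banded mice, and the log2 fold change of 0.37 had a 95% interval from -0.23 to 0.97. It rested on single sham mice, at 0.058 without the third DMSO+Sham mouse and 0.70 without the second.

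Hspg2 encodes perlecan, the main heparan sulfate proteoglycan of vessel basement membranes. It was at 35.69, 39.1 and 31.89 in DMSO+Sham and at 46.55, 39.56 and 51.66 in DMSO+AB. The groups were set apart by a narrow gap, and the log2 fold change of 0.36 did not pass (adjusted p = 0.130 from limma). Agrn, which encodes the dystroglycan-binding proteoglycan agrin, was at 10.22, 9.49 and 17.48 in DMSO+Sham and at 9.91, 9.84 and 9.92 in DMSO+AB. Its log2 fold change was -0.25 and became 0.01 without the third DMSO+Sham mouse, the high value of that group, and -0.40 without the second.

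In this comparison 5.21% of all genes tested were called, 2.50% higher and 2.71% lower, beside 1 member called in each direction. Groups did not overlap in 5 of the 10 members (Lama2, Lamc1, Nid1 and Hspg2 higher and Lama5 lower) and in 17.9% of all genes. An unadjusted p under 0.05 was found for 4 members and for 20.4% of all genes. The median log2 fold change was 0.25 over the members and -0.03 over all genes tested. Both calls depended on single mice. The log2 fold change of Lama5 was -1.01 (adjusted p = 0.0840), -0.93 (0.0909) and -1.07 (0.0604) without the first DMSO+Sham mouse, the second DMSO+AB mouse and the third DMSO+AB mouse. For Nid1 it was 0.55 (adjusted p = 0.102), 0.59 (0.0568), 0.65 (0.0893) and 0.60 (0.0820) without the first or the third DMSO+Sham mouse and the second or the third DMSO+AB mouse. Without the 3 mice of highest Myl7, 1 of them in DMSO+AB, neither gene passed, with -0.93 for Lama5 (adjusted p = 0.183) and 0.65 for Nid1 (adjusted p = 0.179), and limma called 20 of all genes in place of 608. In a model without the hispidulin groups, adjusted p was 0.163 for Lama5 and 0.169 for Nid1, with the same fold changes.

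The numbers in the sample descriptions fall into separate series, and what a series stands for is not given in the sources used here. Within one series, with 1 mouse per group, the log2 difference between DMSO+AB and DMSO+Sham was -0.42 for Lama5 and 0.44 for Nid1. Within the other, with 2 banded mice and 1 sham mouse, it was -1.57 for Lama5 and 0.72 for Nid1. Both genes kept their direction in both series. With the series as a covariate the log2 fold change was -1.04 for Lama5 (adjusted p = 0.0727) and 0.58 for Nid1 (adjusted p = 0.0677), and the first DMSO+Sham mouse, alone in its series, then adds nothing to the estimate. Libraries also differed in how their values moved with GC content of the transcript, from a rank correlation of -0.542 across genes in the third Hispidulin+Sham mouse to 0.601 in the third DMSO+AB mouse. The coding transcripts used had a GC content of 59.9% for Lama5 and 50.4% for Nid1. With GC content and length removed, log2 fold changes were -1.03 for Lama5 (adjusted p = 0.0130) and 0.71 for Nid1 (adjusted p = 0.0135).

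In hispidulin-treated mice, none of the members was called between Hispidulin+AB and Hispidulin+Sham, and limma called 0 of all 11664 genes. At an unadjusted p under 0.05 there were 0 members and 847 genes (7.26%). Nid1 was at 29.75, 33.43 and 33.98 in Hispidulin+Sham and at 34.81, 40.83 and 44.56 in Hispidulin+AB. The banded mice were again all above the sham mice, with a log2 fold change of 0.29 and a 95% interval from -0.01 to 0.60. Lamc1 was at 29.06, 32.34 and 32.42 in Hispidulin+Sham and at 32.65, 36.14 and 42.11 in Hispidulin+AB, with a log2 fold change of 0.23 and a gap between groups that was very narrow. Without the third Hispidulin+AB mouse, the highest of the group, it was 0.13. These were the 2 members without overlap, where 20.9% of all genes had none.

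Lama5 was at 15.93, 13.93 and 11.72 in Hispidulin+Sham and at 14.07, 13.77 and 12.32 in Hispidulin+AB. The banded values lay inside the range of the sham values. Its log2 fold change was -0.04, with a 95% interval from -0.51 to 0.43, and its sign turned when single mice were left out. The interaction of hispidulin and AB, the difference between the Hispidulin and DMSO arms in the change under AB, was 1.00 for Lama5 on the log2 scale (standard error 0.31). Its unadjusted p was 0.00679 and its adjusted p from limma was 0.9995. For Nid1 the interaction was -0.36 (standard error 0.20, unadjusted p 0.0978 from limma across all genes). The interaction called 0 genes in limma and had 289 with an unadjusted p under 0.05 (2.48%), 1 of them a member. A difference between the arms in the response of Lama5 was therefore not established at the level set over all genes.

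When both arms were combined, AB against Sham with 6 mice each, Nid1 was the 1 member called. Its values ran from 22.69 to 33.98 in the sham mice and from 34.81 to 44.97 in the banded mice, without overlap. The log2 fold change was 0.47 (standard error 0.10, 95% interval 0.26 to 0.69), or 1.39-fold, with an adjusted p of 0.0167 from limma, and became 0.43 (adjusted p = 0.0521) without the third Hispidulin+AB mouse. Without the 3 mice of highest Myl7 it was 0.45 (adjusted p = 0.166), and 74 of all genes were called in place of 862. Of all genes tested 7.39% were called and 4.96% had groups without overlap. Lama5 had a log2 fold change of -0.54 (adjusted p = 0.0536 from limma), and passed without the second DMSO+Sham mouse (-0.68, adjusted p = 0.00497). Lamc1 had 0.31 (adjusted p = 0.0585 from limma) and also passed without that mouse (0.36, adjusted p = 0.0240). With library weights and with GC content and length removed both genes passed, Lama5 at -0.58 and -0.54 (adjusted p = 0.00335 and 0.0302) and Lamc1 at 0.34 and 0.35 (adjusted p = 0.0151 and 0.0249). Lama5 passed as well with the filter at an FPKM of 5 (-0.54, adjusted p = 0.0462). Hspg2 had a log2 fold change of 0.24 (adjusted p = 0.119 from limma), Lama2 of 0.20 (0.12 without the third DMSO+Sham mouse) and Lamb2 of -0.16. Hspg2 passed with the number series as a covariate (0.31, adjusted p = 0.0388 from limma). Lamb2 passed with library weights (-0.26, adjusted p = 0.0304 from limma).

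An exact two-sided permutation test that exchanged mice within each arm has 400 assignments and cannot give a p under 0.005. It gave that smallest p for both Nid1 and Lamc1, 0.045 for Lama5 and 0.055 for Hspg2, none of them adjusted. This combined comparison holds the same mice as the comparisons within the arms.

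**Figure D2:**
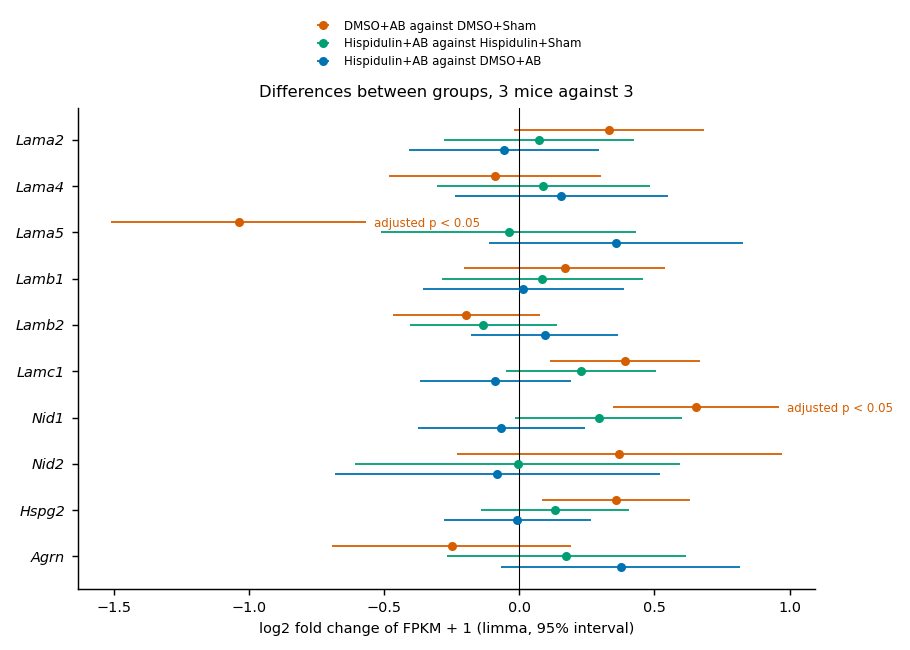
Log2 fold change of FPKM + 1 for the 10 members in 3 comparisons of 3 mice with 3, from limma, with 95% intervals. The points marked with an adjusted p under 0.05 are Lama5 at -1.04 and Nid1 at 0.65, both for DMSO+AB against DMSO+Sham, and the 3 comparisons share mice.

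With hispidulin after banding, 0 members and 0 genes were called between Hispidulin+AB and DMSO+AB in limma, and 0 members and 362 genes (3.10%) had an unadjusted p under 0.05. Lama5 was higher in each Hispidulin+AB mouse (14.07, 13.77 and 12.32) than in any DMSO+AB mouse (11.33, 8.7 and 10.78). Its log2 fold change of 0.36 had a 95% interval from -0.11 to 0.83. Agrn, at 11.3, 11.67 and 17.09 in Hispidulin+AB against 9.91, 9.84 and 9.92 in DMSO+AB, was likewise without overlap. Its log2 fold change was 0.38 with an interval from -0.07 to 0.82, and the third Hispidulin+AB mouse stood above the others. Without that mouse it was 0.20. Groups without overlap made up 7.88% of all genes in this comparison.

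For Nid1 the difference between Hispidulin+AB and DMSO+AB was -0.07 on the log2 scale, with a 95% interval from -0.38 to 0.24. For Lamc1 it was -0.09 (interval -0.37 to 0.19) and for Hspg2 -0.01 (interval -0.28 to 0.27). Each of these intervals included 0. With one mouse left out, values ran from -0.15 to 0.028 for Nid1, from -0.18 to -0.0053 for Lamc1 and from -0.11 to 0.081 for Hspg2. The DMSO+AB mice are also part of the comparison of DMSO+AB with DMSO+Sham.

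Between Hispidulin+Sham and DMSO+Sham, 0 members and 0 genes were called in limma, and 1 member and 287 genes (2.46%) had an unadjusted p under 0.05. The member was Lama5, with a log2 fold change of -0.64 (95% interval -1.11 to -0.17, unadjusted p 0.0119 and adjusted p 0.9999 from limma). Its values overlapped, since the second DMSO+Sham mouse at 14.71 was below the first Hispidulin+Sham mouse at 15.93. Without the third DMSO+Sham mouse the log2 fold change was -0.39. Nid1 had a log2 fold change of 0.29 (interval -0.02 to 0.60), Nid2 also 0.29 (interval -0.31 to 0.89) and Hspg2 0.22 (interval -0.06 to 0.49). Without the third DMSO+Sham mouse the sign of Nid2 turned (-0.019) and Hspg2 was 0.14, and without the second Nid2 was 0.62 and Nid1 0.45. Without the first, Nid1 was 0.19. The DMSO+Sham mice in this comparison are those the DMSO+AB mice were compared with. Over both operations, hispidulin against DMSO, 0 members and 0 genes were called in limma, with 0 members and 347 genes (2.97%) at an unadjusted p under 0.05.

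The makeup of the alpha chains followed these levels. Lama5 made up 47.1 ± 14.9% (SD, n = 3) of the summed FPKM of Lama2, Lama4 and Lama5 in DMSO+Sham, 27.4 ± 3.23% in DMSO+AB, 34.3 ± 3.78% in Hispidulin+Sham and 32.3 ± 3.56% in Hispidulin+AB. In single DMSO+Sham mice the share was 49.5%, 31.2% and 60.6%, and in DMSO+AB mice 28.7%, 23.7% and 29.8%. The summed alpha chain FPKM was 48.4 ± 3.12 in DMSO+Sham and 37.4 ± 1.81 in DMSO+AB, while that of Lamc1 was 29.9 ± 4.58 and 39.2 ± 3.04. Lamb2 supplied 80.7 ± 4.84% of the summed Lamb1 and Lamb2 level in DMSO+Sham and 76.6 ± 3.04% in DMSO+AB. The sum over all 10 members was 242.9 ± 11.2 in DMSO+Sham, 258.5 ± 16.9 in DMSO+AB, 250.6 ± 13.9 in Hispidulin+Sham and 265.8 ± 22.01 in Hispidulin+AB.

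Of 5 ratios between members of a role, that of Lama5 to Lama2 differed most between AB and Sham over both arms, by -0.79 on the log2 scale. The exact permutation test within arms gave p = 0.03, and 0.15 after adjustment over the 5 ratios. The difference was -1.47 in the DMSO arm and -0.12 in the Hispidulin arm, and the DMSO+Sham values were the most spread (SD 0.83). For Lama4 to Lama2, Lamb1 to Lamb2, Nid2 to Nid1 and Agrn to Hspg2 the differences were -0.22, 0.30, -0.25 and -0.29, each with an adjusted p of 0.27 from the exact test. With one mouse left out, these ran from -0.35 to -0.13 for Lama4 to Lama2, from 0.22 to 0.42 for Lamb1 to Lamb2, from -0.42 to -0.12 for Nid2 to Nid1 and from -0.41 to -0.12 for Agrn to Hspg2. The last was nearest to 0 without the third DMSO+Sham mouse, and Lama4 to Lama2 and Nid2 to Nid1 without the second. Nid2 to Nid1 was farthest from 0 without the third DMSO+Sham mouse, and Lama4 to Lama2 without the first. The difference for Lama5 to Lama2 ran from -0.98 to -0.57, the latter without the third DMSO+Sham mouse. None of the 5 ratios passed after adjustment.

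**Figure D3:**
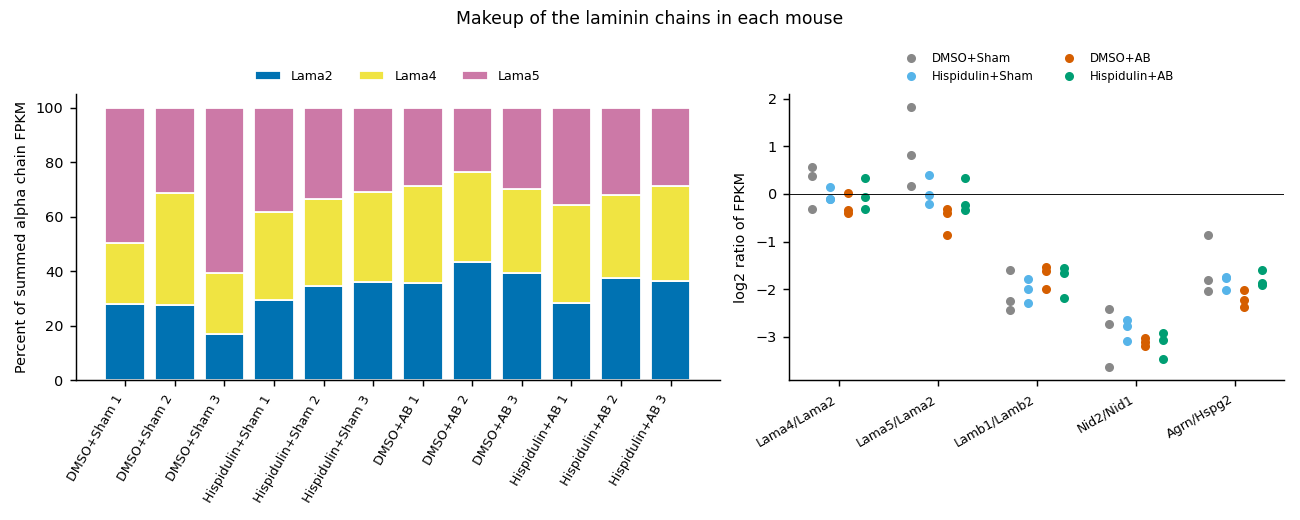
Left, the percentage of the summed FPKM of Lama2, Lama4 and Lama5 that each alpha chain gave in each mouse. Right, the log2 ratio of FPKM for 5 pairs of members, 1 point per mouse. The share of Lama5 ran from 31.2% to 60.6% in DMSO+Sham and from 23.7% to 29.8% in DMSO+AB.

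Across the 12 mice the members did not move as 1 block. Of their 45 pairs, 25 had a positive Pearson correlation of log2(FPKM + 1) and 20 a negative one, with a median r of 0.11. The highest was between Lamc1 and Nid1, whose proteins bind each other, with r = 0.93 and Spearman's rho = 0.93. It was 0.87 without the 2 mice farthest from the median of Lamc1 and 0.88 in deviations from group means. The lowest was between Lama5 and Nid1, with r = -0.88 and rho = -0.87, -0.69 without the 2 farthest mice and -0.74 in deviations from group means. Mice share library and normalization in every pair, and these pairs were the extremes of all pairs, so the values are a description. For 3 other partners of Lama5 the correlation rested more on the outlying mice. Over all mice r was -0.61 with Lamb1, -0.67 with Hspg2 and -0.75 with Nid2, and without the 2 mice farthest from the median of Lama5 it was -0.082, -0.091 and -0.19. With Lamc1 it was -0.70 over all mice and -0.58 without them. With Lama2 it was -0.78, and -0.60 without the 2 mice farthest from the median of Lama2.

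**Figure D4:**
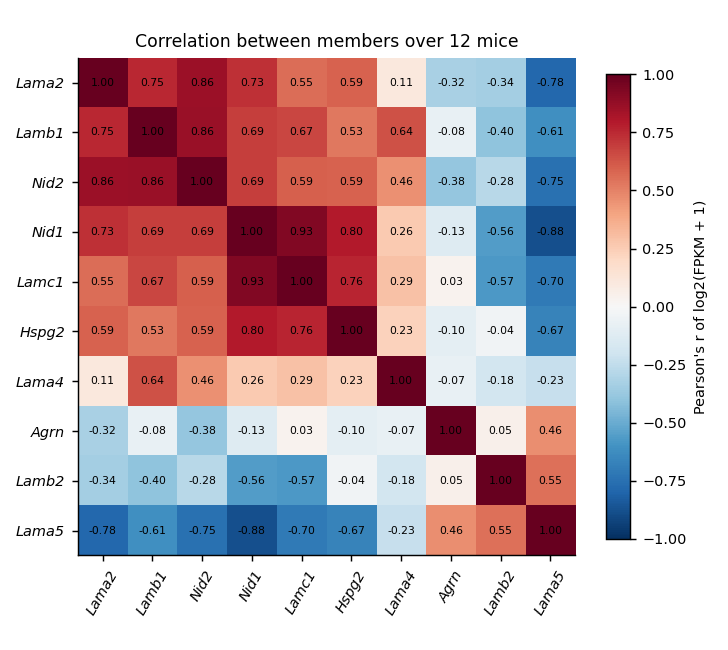
Pearson's r of log2(FPKM + 1) between members over 12 mice, red for positive and blue for negative. Lama2, Lamb1, Nid2, Nid1, Lamc1 and Hspg2 correlate positively with each other, with r = 0.93 between Lamc1 and Nid1, and Lama5 correlates negatively with each of them, from -0.61 with Lamb1 down to -0.88 with Nid1, over all 12 mice.

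The genes whose levels were most like the mean of the 10 members (each member scaled to unit variance) over 12 mice were Pxdn (r = 0.88), Papln (0.85), Ahcyl2 (0.83), Afap1l1 (0.83) and Gm1673 (0.83). Pxdn encodes peroxidasin, the enzyme that forms sulfilimine crosslinks in collagen IV, and Papln encodes papilin, another matrix glycoprotein. In deviations from group means the closest were Prkar1b and Adgrl2 (both 0.93), Cox15 (0.91), Nudcd3 (0.91) and Adcy3 (0.90). Without the 2 mice farthest from the median of the mean, r for these 10 genes ran from 0.65 (Afap1l1) to 0.89 (Cox15). Prkar1b and Adcy3 reached an FPKM of 1 in only 7 and 5 mice.

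Other genes of the basement membrane and its receptors were taken from 7 lists with 54 genes, of which 46 passed the filter on low values. Between DMSO+AB and DMSO+Sham 7 of them were called higher and 1 lower, or 6 higher besides Col4a3, a gene that passed the filter through banded mice alone. Of all genes tested, 2.50% were called higher and 2.71% lower in this comparison (5.21% together). The lists were chosen with earlier results of these data known, so their counts are a description. The median log2 fold change of the 46 was 0.11 against -0.03 over all genes. The collagen IV chains Col4a1 and Col4a2, which form the main network that nidogens bind, rose by 0.87 and 0.80 on the log2 scale (adjusted p = 0.0407 and 0.0206 from limma). Col4a1 was at 52.26, 82.81 and 106.51 in DMSO+Sham and at 129.71, 134.48 and 165.43 in DMSO+AB, without overlap. Col18a1 rose by 0.67. Col4a3 reached an FPKM of 1 only in 3 banded mice, at 1.27, 1.7 and 1.12, so a difference between groups was part of its being tested, and its log2 fold change was 0.71. Sparc, a collagen-binding glycoprotein, rose by 1.47, and the heparan sulfate 6-O-endosulfatases Sulf1 and Sulf2, which edit chains such as those of perlecan and agrin, by 0.83 and 0.76.

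None of the tested laminin receptors (0 of 6) or of the enzymes that build the laminin-binding sugar of dystroglycan (0 of 10) was called by limma in this comparison, with 1 gene of each list at an unadjusted p under 0.05. Over all genes tested these shares were 5.21% and 20.4%, and lists of 6 and 10 genes cannot be told apart from them. Over both arms Sparc, Col4a1, Col4a2, Sulf1, Sulf2 and Col18a1 were again called higher, and so was Col4a3, with the limit given above. The calls in the other direction were 2, of which 1 was among the 10 enzymes of the dystroglycan sugar. Of all genes tested, 7.39% were called over both arms. The other was Lamb3 (-0.61, adjusted p = 0.0146 from limma). Lamb3, a beta chain of epithelial laminin, ran from 2.62 to 5.04 in the sham mice and from 1.76 to 2.45 in the banded mice. Lama1 and Lama3 together were between 0.39 and 0.84 in every mouse. The count of 8 called genes in the DMSO arm fell to between 0 and 4 without the first or the third DMSO+Sham mouse, the second or the third DMSO+AB mouse, or any one mouse of the hispidulin groups. It was 3 without the filter on low values, and 0 with only the groups compared. Over both arms the count of 9 was 5 without the first DMSO+Sham, the second Hispidulin+Sham or the third Hispidulin+AB mouse. Without the 3 mice of highest Myl7 it was 0 in the DMSO arm and 1 over both arms.

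Cell type markers were summed per mouse beside these results. Of all genes tested, 5.21% were called in the DMSO arm, where 20.4% had an unadjusted p under 0.05, and 7.39% were called over both arms. Of the 7 cardiomyocyte markers, which summed to 36118 to 53244 in DMSO+Sham and 43853 to 48666 in DMSO+AB, Ryr2 was called lower. The 7 endothelial markers summed to 1187 to 1586 in DMSO+Sham and 1255 to 2152 in DMSO+AB, and 0 of 7 were called by limma, with 0 at an unadjusted p under 0.05. The 6 fibroblast markers summed to 330 to 395 in DMSO+Sham and 351 to 701 in DMSO+AB, with Col1a1 and Col1a2 called higher. In Hispidulin+Sham and Hispidulin+AB the endothelial sums were 1379 to 1921 and 1571 to 1719, and the fibroblast sums 332 to 444 and 362 to 533. Fabp4 alone made up most of each endothelial sum, and Dcn alone most of each fibroblast sum. In the second DMSO+AB mouse Fabp4 was 1886.95 of the 2152. The 3 myofibroblast markers summed to 23.2 to 88.8 in DMSO+Sham and 77.0 to 222 in DMSO+AB, with Postn called higher. Acta2, the other tested marker of this list, was not called (0.10, adjusted p = 0.937 from limma). Its mean FPKM was 48.9 in DMSO+Sham and 45.95 in DMSO+AB. Myofibroblast sums were 72.7 to 262 in Hispidulin+Sham and 85.7 to 120 in Hispidulin+AB. Acta2, at 254.95, made up most of the sum of 262 in the first Hispidulin+Sham mouse. The 7 smooth muscle and pericyte markers summed to 236 to 271 in DMSO+Sham and 190 to 267 in DMSO+AB, and none was called by limma in the DMSO arm, with 4 at an unadjusted p under 0.05. Over both arms 1 of these 7 was called higher (Tagln, 0.49, adjusted p = 0.0430) and 1 lower (Abcc9, -0.61, adjusted p = 0.0318). The cardiomyocyte, fibroblast and myofibroblast markers called over both arms were again Ryr2, Col1a1, Col1a2 and Postn. Macrophage markers (5 genes) summed to 119 to 280 in DMSO+Sham and 155 to 237 in DMSO+AB, with 0 called by limma and 0 at an unadjusted p under 0.05.

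Of the cells that could come along with the tissue, mesothelial markers (3 genes) summed to between 1.43 and 7.97 over all mice. Schwann cell markers (4 genes) summed to 2.57 to 2.73 in DMSO+Sham and 0.97 to 1.79 in DMSO+AB, without overlap, and to 2.62 to 3.62 in Hispidulin+Sham and 1.5 to 2.64 in Hispidulin+AB. They were thus lower in DMSO+AB beside the lower Lama5 of that group. Sox10, which defines these cells, was at 0.62 to 0.75 in DMSO+Sham and 0.11 to 0.35 in DMSO+AB. Msln and Upk3b, defining markers of mesothelium, were each listed at 0 in 2 mice. Atrial markers (4 of 5 in the table) summed to 90.3 to 309 in DMSO+Sham and 683 to 6215 in DMSO+AB. Of these, Nppa, which banded ventricles also express, was called higher, and made up most of the sum. Sln and Myl4, which mark atrial muscle as Myl7 does, were at 115.52 and 325.33 in the third Hispidulin+Sham mouse, 28.62 and 75.8 in the second DMSO+AB mouse and 9.73 and 39.01 in the third Hispidulin+AB mouse, and Sln was listed at 0 in 3 mice. Erythroid markers (3 genes) summed to between 1690 and 7574. The part of any of these cells in the values of Lama5, Nid1 and the other members was not tested.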

How the data were processed

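Left ventricular RNA of 12 mice was purified with oligo(dT) beads and read as single-end 50 bases on a BGISEQ-500. The authors deposited 1 table of FPKM, rounded to 0.01, for 18079 genes by NCBI Gene identifier, and 99.3% matched a symbol in the RefSeq gene table (GRCm38.p6). The submitters' processing notes name HISAT2 2.0.4, Bowtie2 2.2.5, RSEM 1.2.12 and DESeq2 1.4.5, and the build is not given in the sources used here. Such FPKM keep no read counts, so depth is unknown and tests that need counts were not run. Sums of FPKM per mouse ran from 535235 to 567027.

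Groups came from the labels. In R 4.3.3 with limma 3.58.1, log2(FPKM + 1) was fitted with 1 mean per group for genes that reached an FPKM of 1 in 3 libraries or more (8 error degrees of freedom). Contrasts were tested two-sided with eBayes and a mean-variance trend, and adjusted by Benjamini-Hochberg over 11664 genes. Exact permutation tests, correlations and promoter searches were run in Python 3.11.15. The limma fit was also run on simulated data with independent normal noise for each gene. Those data held no outlying libraries and no trend with GC content, so that run does not cover these features. P-values from limma set a difference of group means against the spread between mice within groups, shared over the 4 groups. Those of the exact tests come from exchanging mice between AB and Sham within each arm.

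All 10 members are named, together with the genes of 7 basement membrane lists called in DMSO+AB against DMSO+Sham or over both arms, the 5 genes most like the mean of the members, and the member pairs of highest and lowest correlation. Marker lists are given as sums, and the markers named singly were chosen after their values were seen. Some genes of these lists enter the counts but are not reported here by name. The members and lists were chosen with earlier results of these data known. Alternatives were quantile normalization, median-of-ratios scaling, library weights, a fit without the trend, an offset of 0.1, no filter, a filter at an FPKM of 5, a replicate block, the number series as a covariate, a fit of the groups compared alone, the stricter thresholds of the study (adjusted p up to 0.001 and a log2 change of 1 or more), and each library left out. Removal of GC content and length, taken from the longest coding transcript in GENCODE for 11378 genes, was chosen after seeing the data, as was leaving out the 3 libraries with the highest FPKM of Myl7.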

Additional observations from a re-analysis of the deposited data

How the results depend on the processing

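A tally was made of 808 refitted fold changes of members. It covered all members in DMSO+AB against DMSO+Sham, but only some members in the other comparisons. Among those left out were fold changes close to 0, where a sign turns easily. Examples are Lama4 over both arms (-0.0009) and Nid2 in Hispidulin+AB against Hispidulin+Sham (-0.0059). Of the 808, 762 kept their direction and their side of the threshold, and 18 turned their sign. Another 15 lost and 13 gained an adjusted p under 0.05. Every turned value in the tally came from a fold change that was not called. Library weights gave 0.13 for Lama4 in DMSO+AB against DMSO+Sham, -0.0068 for Lama2 in Hispidulin+AB against Hispidulin+Sham and 0.043 for Hspg2 in Hispidulin+AB against DMSO+AB, and quantile normalization gave 0.025 for the last. Without the 3 libraries of highest Myl7, values for Hispidulin+AB against Hispidulin+Sham were -0.023 for Hspg2 and -0.024 for Agrn. With one library left out, values for DMSO+AB against DMSO+Sham ran from -0.25 to 0.17 for Lama4 and from -0.40 to 0.0055 for Agrn. For Hispidulin+AB against Hispidulin+Sham they ran from -0.018 to 0.23 for Lama2, from -0.15 to 0.060 for Lama5 and from -0.0046 to 0.27 for Agrn. For Hispidulin+AB against DMSO+AB they ran from -0.15 to 0.028 for Nid1 and from -0.11 to 0.081 for Hspg2, and for Hispidulin+Sham against DMSO+Sham from -0.019 to 0.62 for Nid2.

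The 2 members called in DMSO+AB against DMSO+Sham became 3, with Lamc1, under library weights and with GC content and length removed. They became 0 with the number series as a covariate, 0 with only the groups compared, 0 under the study's criteria, 0 without the 3 libraries of highest Myl7, and 0 to 3 with one library left out. The 8 other basement membrane genes became 3 with no filter, 0 under each of those 4 settings and 0 to 11 with one library left out. Over both arms the 1 member became 2 with an FPKM of at least 5, 4 with library weights, 2 with the number series, 3 with GC content and length removed, 3 in the exact permutation test without adjustment, 0 under the study's criteria, 0 without the 3 libraries of highest Myl7 and 0 to 3 with one library left out. The 9 other genes became 18 with library weights, 0 under the study's criteria, 1 without the 3 libraries of highest Myl7 and 5 to 13 with one library left out. The cause was not tested. The counts of 0 members under hispidulin and in the interaction stayed 0 in the alternatives run.

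The replicate numbers belong to different animals. Deviations from group means correlated by 0.0578 on average in 18 same-numbered pairs of libraries, 10 of them over 0.1, and by -0.0289 in other pairs. With the replicate block the members called over both arms were 2, since Lamc1 (0.31) had an adjusted p of 0.0443, and no other call on a member changed.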

Other observations

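Genes most like the single members that passed the test were looked up after their values were seen, as a description over 12 mice. The levels of Nid1 were closest to those of Bmp1 (Pearson's r = 0.96, Spearman's rho = 0.95), which encodes a procollagen C-proteinase, and Sorbs2 (0.94), Pdzd3 (0.93), Col18a1 (0.93) and Col15a1 (0.93) came next. Without the 2 mice farthest from the median of Nid1, r was 0.94 for Bmp1 and 0.81 to 0.90 for the other 4. Bmp1 was at 9.19, 11.07 and 8.64 in DMSO+Sham and at 12.64, 15.77 and 14.97 in DMSO+AB. The last 2 of the neighbours encode the basement membrane zone collagens XVIII and XV.

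The levels of Lama5 were closest to those of Gbp10 and Isyna1 (both r = 0.96), Fbxo31 (0.95), Acss1 (0.95) and Pknox2 (0.95). Without the 2 mice farthest from the median of Lama5 these values were 0.78, 0.87, 0.77, 0.80 and 0.81. Gbp10 reached an FPKM of 1 in only 3 mice, at 2.81, 4.63 and 1.2, which were the mice of highest Lama5, so it passed the filter on low values only through them. Isyna1, the enzyme of inositol synthesis, was at 18.71, 11.55 and 22.81 in DMSO+Sham and at 8.36, 7.92 and 9.42 in DMSO+AB. It had its lowest sham value in the second mouse and its highest in the third, as Lama5 had. All of these genes share the 12 libraries and the normalization with the member they were set beside.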
